A study of Homo sapiens with 6 samples.

Results

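The 44 genes described here encode the machinery and the regulators of DNA replication, and were taken as the rows of the count table whose gene symbol equals a name on a written list. All 44 were found among the 56478 rows with a gene symbol. They fall into 5 roles: 11 genes of origin licensing, 9 of origin firing, 13 of synthesis at the fork, 4 of nucleotide supply and 7 regulators and chromatin factors. Levels were measured by RNA sequencing in BT20, a human breast cancer line of the triple negative class, kept in medium with serum and given no further treatment. The shControl group (n = 3) carried a control short hairpin RNA, and the shCK5-22 group (n = 3) carried a hairpin against cytokeratin 5, the basal keratin encoded by KRT5, both in a pLK0 vector. Each arm has 1 hairpin. Nothing in the labels ties the replicates to independent cultures, and the spread that the p-values rest on may therefore be technical. The comparison asks how transcripts of the replication machinery stand when KRT5 is knocked down.

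Replication starts in G1, when the origin recognition complex (ORC), CDC6 and CDT1 load rings of the MCM2 to MCM7 helicase onto DNA, a step called licensing. At the start of S phase the kinases CDC7-DBF4 and CDK2 bring CDC45 and the GINS complex to the loaded rings, which makes the active helicase. DNA polymerase alpha-primase then lays down primers, the clamp loader RFC places the sliding clamp PCNA, and polymerases delta and epsilon extend the strands. Many of these genes are targets of E2F transcription factors, which the retinoblastoma protein holds in check until late G1.

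Libraries held between 47703937 and 65541734 counts, and 18008 genes passed the filter on low counts and were tested. KRT5 stood between 231 and 247 CPM (read counts scaled to a common library size) in shControl and between 21.1 and 24.1 CPM in shCK5-22, so the libraries matched their labels. By the mean over the libraries, of 5 epithelial markers (EPCAM, CDH1, KRT8, KRT18, KRT19) all 5 were above 1 CPM, with a summed level of 7828 to 8269 CPM in shControl and 7195 to 7725 CPM in shCK5-22. Among these, CDH1 and KRT19 were lower in shCK5-22 (log2 fold changes -0.37 and -0.63), and EPCAM, KRT8 and KRT18 did not pass the test below. The basal markers KRT14, KRT17 and EGFR were lower as well. In shControl, ESR1 was at a mean of 14.5 CPM, ERBB2 at 120 CPM and PGR at 0.059 CPM. Of 5 leukocyte markers 0 reached 1 CPM (summed 0.333 to 0.645 and 0.215 to 0.301 CPM, with CD68 at 0 in every library). Of 4 endothelial markers 2 did, CDH5 and PECAM1, with sums of 23.4 to 31.3 CPM in shControl and 19.2 to 31.2 CPM in shCK5-22, and of 6 fibroblast markers 1 did, COL1A1, with sums of 31.8 to 32.8 and 28.3 to 29.4 CPM. The fibroblast marker PDGFRB was at a mean of 0.052 CPM in shControl and 1.08 CPM in shCK5-22, and the part of any other cell type in the results was not tested. The library shCK5-22 replicate 1 stood apart from the others of its group: its chi-square per degree of freedom over all genes was 33.7 and 19.8 against replicates 2 and 3, which differed from each other by 5.08, while shControl pairs lay between 3.47 and 4.88. Over the 44 genes alone, of which 42 or 43 entered each pair, that library stood less far off, at 8.89 and 4.69. Replicates 2 and 3 of its group differed by 3.57 there, and shControl pairs lay between 4.67 and 6.97. The value of 8.89 was the largest of these pairs.

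Expression of the replication genes was close to level between the groups, with small shifts in both directions. Of the 42 members tested, 13 were lower and 5 higher in shCK5-22 at an adjusted p under 0.05 by edgeR's quasi-likelihood test, and 24 did not pass. Over all genes tested 34.2% passed, 17.4% higher and 16.8% lower, and among the members the share was 42.9%. Among genes with a mean of at least 20 CPM, 50.3% passed, and 18 of the 41 members at that level did (43.9%). By direction, 13 of these members were lower and 5 higher, against 1607 lower and 2075 higher of the 7316 genes. The falls were led by POLA2, the second subunit of DNA polymerase alpha, and by the licensing factor CDC6. The rises were led by CDC25A, the phosphatase that activates CDK2, and by the S phase kinase CDC7. No member changed by more than 1.24-fold, while 3.56% of all genes tested passed with an absolute log2 fold change of at least 1. The median log2 fold change of the 42 was -0.05, beside -0.01 over all genes tested. At a mean of at least 20 CPM it was -0.05 over the members and 0.02 over all genes. The median absolute value over the 42 was 0.09, beside 0.18 over all genes and 0.11 over genes of at least 20 CPM. In these bulk libraries, fewer cells in S phase and less RNA per cell cannot be told apart.

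The shifts can be read beside the spread between libraries. The SD of log2 CPM between libraries of a group had a median of 0.04 over the members in shControl and again 0.04 in shCK5-22. Groups did not overlap for 25 members, 17 lower and 8 higher, while 45.1% of all genes tested did not overlap. At a mean of at least 20 CPM the count was 25 of 41 members and 4377 of 7316 genes. Without regard to direction, the members were thus close to other genes of their level. By direction they differed: 17 lower and 8 higher, against 1892 lower and 2485 higher of the 7316 genes. This difference was not tested. The 25 members included all 18 that passed the test. Of the 42, 23 had an absolute log2 fold change under 0.1, 15 lay from 0.1 to under 0.2, and 4 (POLA2, CDC25A, CDC6 and CDC7) were at 0.2 or more. The 24 members that did not pass had 95% confidence intervals between -0.20 and 0.27 on the log2 scale, and for 21 of them both bounds lay within 0.2 of 0. The number of lower members was 8 without shCK5-22 replicate 3, while the number of higher members was 5 there. Over all genes, lower calls went from 3019 to 2547 and higher calls from 3134 to 2680 in that setting. Without shCK5-22 replicate 1, the library that stood apart, 7 members were higher and 13 lower. Over all genes 3098 were higher and 3087 lower without it.

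**Figure D1:**
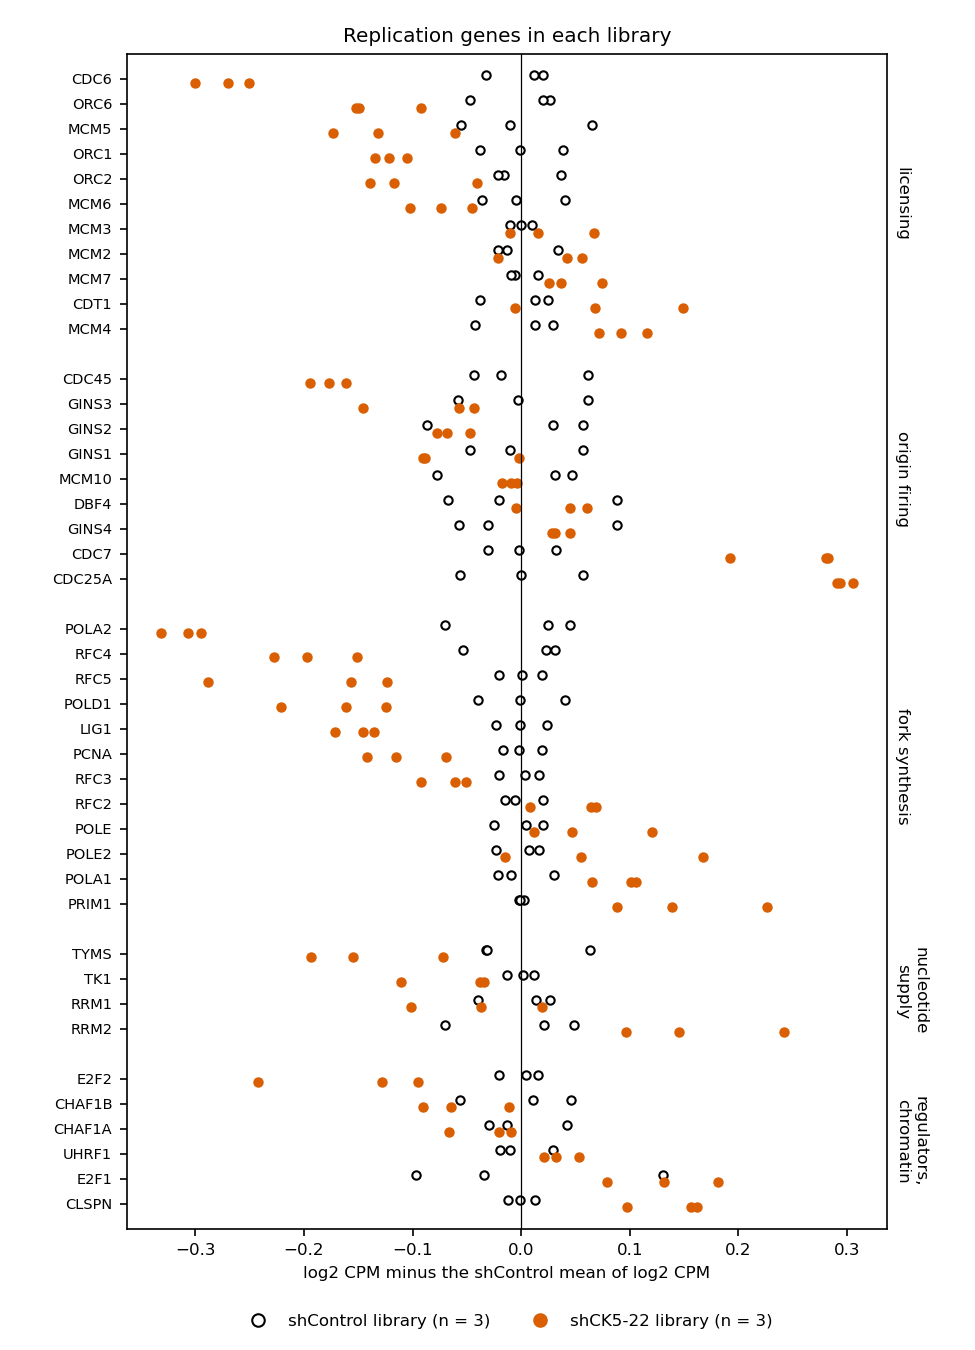
Level of each of the 42 tested members in each library, as log2 CPM minus the shControl mean of that gene's log2 CPM (x axis), by role and ordered by fitted change within a role. Open points are the 3 shControl libraries and filled points the 3 shCK5-22 libraries; filled points lie apart from open ones for 25 members, most clearly for CDC6, POLA2, CDC7 and CDC25A.

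The levels themselves ranged widely among the members. For levels per kilobase, CPM was divided by the length of all annotated exons of a gene merged. That length can far exceed a single transcript: 5105 bases for GINS3, against 2274 in its longest coding transcript. The ranks below therefore depend in part on the length used. On this scale PCNA was highest of the 44, at 194 CPM per kilobase in shControl and 180 CPM per kilobase in shCK5-22. TK1, the salvage enzyme thymidine kinase, followed at 124 and 119, and MCM7 at 110 and 114 CPM per kilobase. At the low end of the genes tested were GINS4 at 0.845 and 0.865, CDC7 at 5.32 and 6.33, and GINS3 at 5.37 and 5.07 CPM per kilobase. The counts behind a tested member ran from 236 to 32373 per library. Summed over the 44 genes, the share of a library's counts was 0.521% to 0.529% in shControl and 0.518% to 0.521% in shCK5-22.

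**Figure D2:**
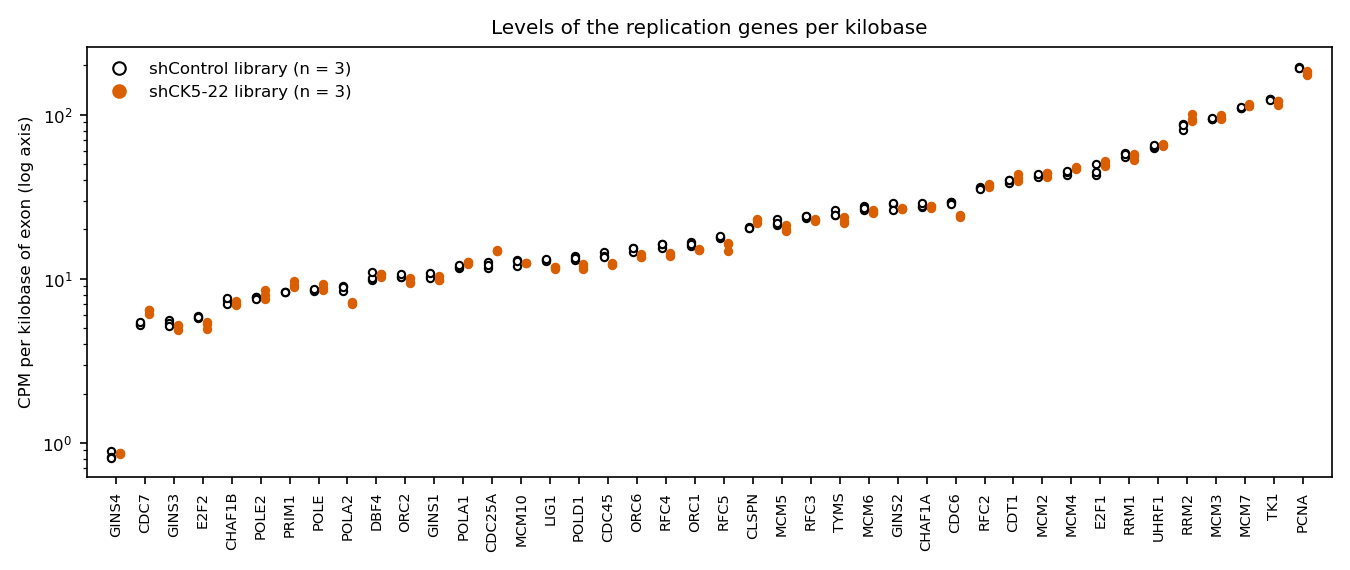
Level of each tested member in CPM per kilobase of exon (log axis), ordered by the shControl mean, with 1 point per library (open shControl, filled shCK5-22; n = 3 each). The order runs from GINS4 at 0.845 to PCNA at 194 CPM per kilobase in shControl, and the distance between groups is small beside the range between genes.

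Some limits bear on which members can be read at all. FEN1, the flap endonuclease that trims Okazaki fragments (chromosome 11, 61792637 to 61797244, plus strand, GRCh38), had 6, 14 and 8 counts in the shControl libraries and 4, 9 and 6 in the shCK5-22 libraries. E2F8, a repressor of the E2F family (chromosome 11, 19224063 to 19241620, minus strand), was listed at 0 in all 6 libraries. Neither was tested. Of the exon bases of FEN1, 92.9% lie inside the span of another gene of the table (TMEM258 or FADS2) in GENCODE release 29. For E2F8 that share is 0% in GENCODE 29, while in RefSeq its span lies 100% inside the antisense gene CSRP3-AS1. In RefSeq the share for FEN1 is 0%, and a span wholly inside another RefSeq gene does not by itself go with a count of 0: RAD1, CHTF8 and DSCC1, each at 100%, had 24921, 25358 and 9009 counts over the 6 libraries. Over the whole table, 1080 of 1243 protein-coding genes with at least 95% of their exon bases inside another gene's span were at 0 in every library (86.9%), against 1698 of 12276 with none (13.8%). In the class from 50 to under 95%, where FEN1 falls, 90 of 815 were at 0 (11.0%), and below 50% 204 of 4515 were (4.52%). Whether the counting removed reads of FEN1 and E2F8 was not tested. Among the members, 32 had no exon base inside another gene of the table. TYMS had 56.2% of its exon bases inside its antisense neighbours ENOSF1 and TYMSOS. In 6 members (POLA2 54.1%, RRM2 29.6%, UHRF1 25.7%, PRIM1 23.3%, DBF4 18.1% and POLD1 10.9%) more than 10% of 50-base windows of the longest coding transcript also occur in transcripts of another gene. With the use of strand and of shared reads unknown, the counts of these 6 genes and of TYMS are uncertain. In RefSeq, 35.4% of the span of RFC5 and 27.7% of that of POLA2 lie inside other loci, and CDC7 falls between them.

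Promoter sequences, which the choice of members did not use, were searched for short motifs. RefSeq (GRCh38.p14) gave windows of 250 bases before to 50 bases from the start for 40 of the 44 genes, 51 windows in all. The E2F motif, searched as TTTGGCGC or TTTCGCGC on both strands, occurred in at least 1 window of 14 of the 40 members, against 382 of all 27305 genes with a window (1.4%) and 403 of all 35116 windows (1.15%). It was found in 2 of 15 mitosis genes with a window, in 1 of the 4 members that rose, in 3 of the 12 that fell and in 10 of the 23 that were tested and not called. The cell cycle homology region, searched as TTTGAA or TTCGAA on both strands and known from promoters of mitotic genes, was found in 3 of the 40 members, 11 of the 15 mitosis genes and 19.5% of all genes. CCAAT was present for 24 of the 40 members, 13 of the 15 mitosis genes and 39.7% of all genes. Other replication and S phase genes, described below, had windows in 72 cases. Of these 72, 11 had the E2F motif, 11 the cell cycle homology region and 40 CCAAT. These matches are letters in a window and were not measured as binding. The stretches below lie before the RefSeq start, with the E2F motif in capitals. Gene coordinates elsewhere in the text are from GENCODE and can differ from that start. By the GENCODE coordinates, the POLA2 stretch lies inside its gene and the E2F1 stretch lies partly inside its gene. The stretches were chosen to set the strongest rise and the strongest fall beside related genes. They are CDC25A (chr3:48188428-48188487, minus strand, motif from 44 bases before the start), POLA2 (chr11:65261898-65261927, plus strand, from 53 bases), POLA1 (chrX:24693755-24693814, plus strand, from 137 bases, reverse orientation), MCM6 (chr2:135876562-135876621 and chr2:135876500-135876559, minus strand, from 152 and 90 bases), E2F1 (chr20:33686387-33686416, minus strand, from 20 bases) and E2F2 (chr1:23531242-23531301, minus strand, from 42 bases).
CDC25A: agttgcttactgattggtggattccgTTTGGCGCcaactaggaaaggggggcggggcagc
POLA2: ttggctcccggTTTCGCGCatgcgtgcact
POLA1: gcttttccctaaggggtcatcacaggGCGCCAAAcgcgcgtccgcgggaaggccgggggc
MCM6, distal: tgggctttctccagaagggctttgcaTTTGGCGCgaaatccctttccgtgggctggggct
MCM6, proximal: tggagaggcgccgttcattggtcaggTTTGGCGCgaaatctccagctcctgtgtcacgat
E2F1: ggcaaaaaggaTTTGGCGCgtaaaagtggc
E2F2: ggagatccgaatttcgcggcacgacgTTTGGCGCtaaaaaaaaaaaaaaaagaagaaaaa
The motif stands in the same form in CDC25A, which rose, and in E2F2, which fell. Each MCM6 motif runs into a second match on the other strand that starts 4 bases further on, at 148 and 86 bases before the start.

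Among the licensing genes, 4 of 11 were lower and 1 higher. The share that passed was 45.5%, beside 34.2% of all genes tested and 50.3% of those with a mean of at least 20 CPM. CDC6, the ATPase that recruits the helicase to ORC (chromosome 17, 40287633 to 40304657, plus strand), stood at 163, 164 and 158 CPM in shControl replicates 1, 2 and 3, against 136, 134 and 132 CPM in shCK5-22 replicates 1, 2 and 3. All 3 knockdown libraries lay below all 3 controls. With means of 162 ± 3.18 and 134 ± 2.32 CPM (SD over 3 libraries, as for every ± value here), it had a log2 fold change of -0.27 (SE 0.03, edgeR adjusted p = 4.92e-07). This call held under all 15 alternative settings.

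The ORC subunits shifted less and in the same direction. ORC1, the largest subunit and the one whose level cycles (chromosome 1, 52372829 to 52404459, minus strand), went from 51.7 ± 1.38 to 47.6 ± 0.492 CPM (log2 fold change -0.12, edgeR adjusted p = 0.0278). ORC6 (chromosome 16, 46689643 to 46698394, plus strand) fell by 0.13, from 65.3 ± 1.85 to 59.6 ± 1.41 CPM (edgeR adjusted p = 0.0132). ORC2 was at 60.6 ± 1.36 and 56.6 ± 2.04 CPM and did not pass (edgeR adjusted p = 0.0691), although its groups did not overlap. The calls of ORC1 and ORC6 were close to the threshold. That of ORC1 was lost when shControl replicate 2 or 3 or shCK5-22 replicate 2 or 3 was left out, with an adjusted p of up to 0.121. That of ORC6 was lost without shControl replicate 1 or 3 or shCK5-22 replicate 3, with up to 0.067. CDT1, the loading factor that works with CDC6, went the other way in value, at 132 ± 3.04 and 138 ± 7.44 CPM (edgeR adjusted p = 0.153), and passed only without shCK5-22 replicate 1 (0.0127).

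The 6 subunits of the MCM ring did not shift as a unit. MCM4 (chromosome 8, 47960185 to 47978160, plus strand) stood at 299.96, 312 and 315 CPM in shControl, against 329, 335 and 325 CPM in shCK5-22, a rise of 0.09 on the log2 scale (edgeR adjusted p = 0.0165). MCM5 (chromosome 22, 35400063 to 35425430, plus strand) stood at 156, 170 and 161 CPM in shControl, against 144, 155 and 148 CPM in shCK5-22, a fall of 0.12 (log2 fold change -0.12, edgeR adjusted p = 0.0116). In both genes the groups did not overlap, though for MCM5 the gap was narrow. The MCM4 call was lost without shControl replicate 1 or shCK5-22 replicate 2, with an adjusted p of up to 0.135, and the MCM5 call without shControl replicate 2 or shCK5-22 replicate 3, with up to 0.0909.

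The other subunits of the ring did not pass. MCM2 (chromosome 3, 127598223 to 127622436) was at 207, 206 and 214 CPM in shControl and 206, 215 and 217 CPM in shCK5-22. MCM3 (chromosome 6, 52264009 to 52284881) was at 346, 344 and 348 CPM and at 344, 362 and 350 CPM. In both genes the groups overlapped. MCM6 (chromosome 2, 135839626 to 135876426) was at 108, 114 and 111 CPM in shControl and 103, 108 and 105 CPM in shCK5-22. MCM7 (chromosome 7, 100092728 to 100101940), which had the highest level per kilobase of the licensing genes, was at 482, 481 and 489 CPM and at 496, 510 and 493 CPM. For MCM6 all knockdown libraries lay just below the controls, and for MCM7 just above. The intervals of these 4 log2 fold changes were -0.04 to 0.09 (MCM2), -0.04 to 0.08 (MCM3), -0.14 to -0.00 (MCM6) and -0.01 to 0.10 (MCM7), with edgeR adjusted p-values of 0.576, 0.572, 0.097 and 0.219. The proteins form a ring with 1 copy of each. Per kilobase of merged exon, mRNA levels in shControl were 22.1 for MCM5, 27.0 for MCM6 and 42.6 for MCM2. They were 44.3 for MCM4, 94.8 for MCM3 and 110 for MCM7. The merged exons of MCM5 and MCM4 measure 7338 and 6973 bases, against 3534 and 4183 in the longest coding transcript. This order therefore depends in part on the length used.

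Origin firing genes held the 2 largest rises. CDC25A (chromosome 3, 48157146 to 48188402, minus strand) stood at 51.9, 48.0 and 49.9 CPM in shControl, against 61.7, 61.2 and 61.1 CPM in shCK5-22. The 3 knockdown libraries were nearly equal and all above the controls. The mean rose 1.23-fold, from 49.9 ± 1.96 to 61.3 ± 0.322 CPM (log2 fold change 0.30, SE 0.04, edgeR adjusted p = 7.79e-06). CDC7, the kinase that phosphorylates the MCM ring (chromosome 1, 91500893 to 91525764, plus strand), was at 18.9, 18.5 and 19.3 CPM in shControl, against 23.01, 21.6 and 22.97 CPM in shCK5-22, with no overlap. It rose 1.19-fold (log2 fold change 0.25, SE 0.06, edgeR adjusted p = 0.0018). DBF4, the activating partner of CDC7, was at 47.3 ± 2.63 and 48.3 ± 1.14 CPM and did not pass (edgeR adjusted p = 0.661).

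Of the factors that join the loaded ring, CDC45 was lower. CDC45 (chromosome 22, 19479459 to 19520612, plus strand) stood at 41.5, 39.2 and 38.5 CPM in shControl, against 35.1, 35.5 and 34.7 CPM in shCK5-22. All knockdown libraries were below the controls, and the log2 fold change was -0.18 (SE 0.05, edgeR adjusted p = 0.00549). None of the 4 GINS subunits passed. GINS2, the firing gene with the highest level per kilobase, was at 93.1, 94.9 and 85.9 CPM in shControl, against 86.4, 88.3 and 87.0 CPM in shCK5-22, so the lowest of the 6 libraries was shControl replicate 3 and the groups overlapped. GINS1 was at 42.6 ± 1.57 and 40.9 ± 1.44 CPM, GINS3 at 27.4 ± 1.13 and 25.9 ± 0.983 CPM, and GINS4 at 4.62 ± 0.251 and 4.73 ± 0.0296 CPM. GINS4 was the least precise, with an interval of -0.19 to 0.27 on the log2 scale, and in RefSeq 68.0% of its span lies inside the antisense gene GPAT4-AS1. MCM10, a firing factor outside the ring, was at 68.7 ± 3.19 and 68.1 ± 0.336 CPM (edgeR adjusted p = 0.848).

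At the fork, 6 of the 12 genes tested were lower and 0 higher. In either direction, 50.3% of all genes with a mean of at least 20 CPM passed, so the share of 50% without regard to direction was near that background. By direction it differed, as 1607 of these 7316 genes were lower and 2075 higher. This difference was not tested. POLA2 (chromosome 11, 65261762 to 65305589, plus strand) had the largest fall of all members, from 52.1, 48.1 and 51.4 CPM in shControl to 40.8, 41.2 and 40.1 CPM in shCK5-22. The groups were far apart beside their spread. The mean fell 1.24-fold, from 50.5 ± 2.12 to 40.7 ± 0.525 CPM (log2 fold change -0.31, SE 0.04, edgeR adjusted p = 1.22e-05). The other subunits of polymerase alpha-primase lay on the other side of 0. PRIM2, a subunit not on the member list, was higher, at 53.7 ± 0.332 and 58.4 ± 2.95 CPM (log2 fold change 0.12, edgeR adjusted p = 0.0339). POLA1, the catalytic subunit (chromosome X, 24693919 to 24996986), was at 74.8 ± 1.40 and 79.7 ± 1.21 CPM (log2 fold change 0.09, edgeR adjusted p = 0.0551). PRIM1, the primase catalytic subunit (chromosome 12, 56731596 to 56752373), was at 20.3 ± 0.0348 and 22.6 ± 1.10 CPM (0.15, edgeR adjusted p = 0.0503). Both had groups that did not overlap and passed under some alternatives: POLA1 with upper quartile scaling and with the replicate number as a block, and PRIM1 with these, with RLE scaling and without shCK5-22 replicate 1.

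The clamp PCNA and 2 subunits of its loader were lower. PCNA (chromosome 20, 5114953 to 5126626, minus strand) stood at 285, 289 and 282 CPM in shControl, against 259, 272 and 264 CPM in shCK5-22, a log2 fold change of -0.11 (SE 0.03, edgeR adjusted p = 0.00591). All 3 knockdown libraries lay below the controls. RFC4 (chromosome 3, 186789880 to 186807058) went from 46.4, 49.2 and 48.9 CPM to 41.1, 42.0 and 43.4 CPM, a log2 fold change of -0.19 (SE 0.04, edgeR adjusted p = 0.0017). RFC5 (chromosome 12, 118013588 to 118033130) went from 57.8, 58.7 and 59.5 CPM to 48.1, 52.6 and 53.9 CPM, also -0.19 (SE 0.04, edgeR adjusted p = 0.00228). In neither loader subunit did the groups overlap, and RFC5 was lowest in shCK5-22 replicate 1. The loader subunits RFC2, at 79.3 ± 1.009 and 81.9 ± 1.92 CPM, and RFC3, at 68.7 ± 0.874 and 65.6 ± 0.968 CPM, did not pass (edgeR adjusted p = 0.341 and 0.168). RFC1, the large loader subunit and not on the member list, was higher, at 111 ± 2.70 and 122 ± 1.43 CPM (log2 fold change 0.14, edgeR adjusted p = 0.00221).

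POLD1, the catalytic subunit of polymerase delta (chromosome 19, 50384204 to 50418016), fell from 66.1 ± 1.83 to 58.8 ± 1.98 CPM (log2 fold change -0.17, edgeR adjusted p = 0.00238). LIG1, the ligase that joins Okazaki fragments (chromosome 19, 48115445 to 48170603), fell from 85.3 ± 1.37 to 76.8 ± 0.990 CPM (-0.15, edgeR adjusted p = 0.00176). The polymerase epsilon subunits among the members did not pass: POLE was at 142 ± 2.23 and 148 ± 5.70 CPM and POLE2 at 22.7 ± 0.320 and 23.8 ± 1.53 CPM (edgeR adjusted p = 0.178 and 0.406). POLE4, a further subunit outside the member list, was higher (log2 fold change 0.21, edgeR adjusted p = 0.0117).

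In nucleotide supply, RRM2 and TYMS passed, in opposite directions. RRM2, the cell cycle-regulated subunit of ribonucleotide reductase (chromosome 2, 10120698 to 10131419, plus strand), stood at 432, 469 and 460 CPM in shControl, against 485, 536 and 501 CPM in shCK5-22. The groups did not overlap, and the level rose by 0.16 on the log2 scale (SE 0.04, edgeR adjusted p = 0.00275). RRM1, the large subunit, was at 239 ± 5.80 and 232 ± 9.74 CPM and did not pass (edgeR adjusted p = 0.394). TYMS, thymidylate synthase (chromosome 18, 657604 to 673578), was lower, at 62.2 ± 2.41 and 56.5 ± 2.45 CPM (log2 fold change -0.14, edgeR adjusted p = 0.0167), a call lost without shControl replicate 1 or shCK5-22 replicate 3 (adjusted p of up to 0.1). TK1, the supply gene with the highest level per kilobase (chromosome 17, 78174075 to 78187233), was at 232, 231 and 228 CPM in shControl, against 213, 225 and 225 CPM in shCK5-22. All 3 knockdown libraries were below the controls, but the gene did not pass (edgeR adjusted p = 0.127).

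Among regulators and chromatin factors, CLSPN rose and E2F2 fell. CLSPN, or claspin, which links the fork to the CHEK1 checkpoint kinase (chromosome 1, 35720218 to 35769967, minus strand), stood at 111, 112 and 110 CPM in shControl, against 124, 119 and 124 CPM in shCK5-22. The groups were well apart, with a log2 fold change of 0.14 (SE 0.03, edgeR adjusted p = 0.0019). E2F2, an activating E2F (chromosome 1, 23506430 to 23531220), was at 31.8 ± 0.403 and 28.6 ± 1.52 CPM (-0.15, edgeR adjusted p = 0.0284), a call lost without any 1 of the shControl libraries or without shCK5-22 replicate 3 (adjusted p of up to 0.158). E2F1 (chromosome 20, 33675683 to 33686404) was at 126, 107 and 112 CPM in shControl, against 130, 121 and 126 CPM in shCK5-22. Its groups overlapped through shControl replicate 1, and without that library its log2 fold change was 0.19 (adjusted p = 0.0015) in place of 0.13 (edgeR adjusted p = 0.0648). It passed under 6 of the 15 alternatives. UHRF1, which brings the maintenance methyltransferase to new DNA (chromosome 19, 4903080 to 4962154), was at 324, 326 and 335 CPM and at 340, 335 and 333 CPM, with overlapping groups (edgeR adjusted p = 0.368). The chromatin assembly subunits CHAF1A, at 121 ± 3.16 and 118 ± 2.46 CPM, and CHAF1B, at 37.6 ± 1.35 and 36.2 ± 1.02 CPM, did not pass (edgeR adjusted p = 0.506 and 0.423).

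**Figure D3:**
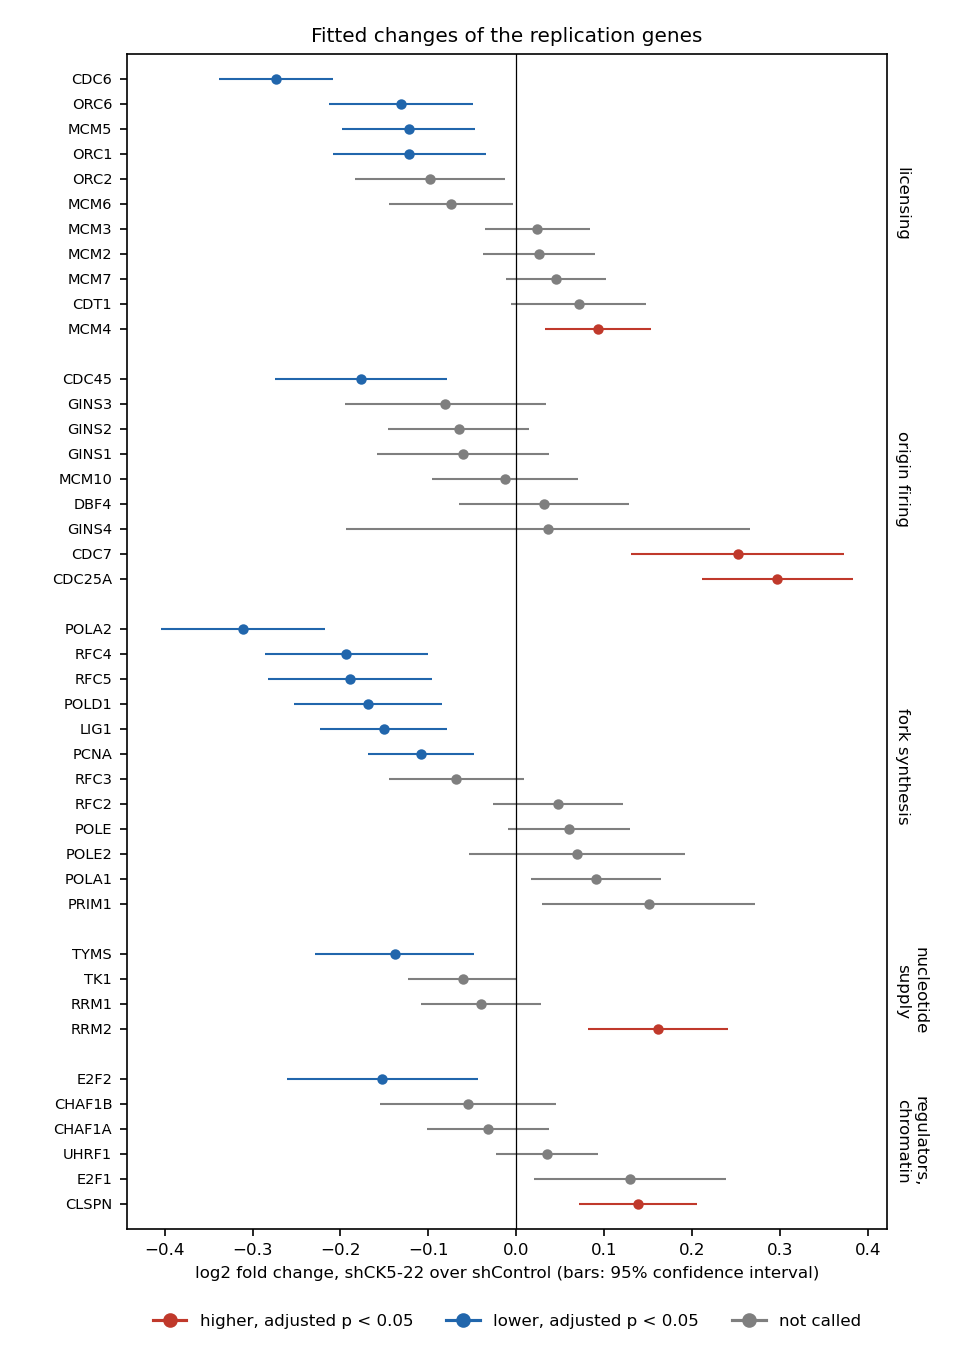
Fitted log2 fold change of shCK5-22 over shControl for the 42 tested members by role (points), with 95% confidence intervals (bars) and the call at an adjusted p of 0.05 by color. The values run from -0.31 for POLA2 to 0.30 for CDC25A, and 24 members were not called.

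Partner subunits were set against each other within each library, which removes the scaling between libraries. The 8 pairs were chosen after the values had been seen. The log2 ratio of POLA1 to POLA2 was 0.50, 0.63 and 0.57 in shControl and 0.98, 0.93 and 1.00 in shCK5-22, a difference of 0.40 with no overlap. The ratio of POLD1 to its partner POLD2 was -1.32, -1.37 and -1.33 in shControl and -1.59, -1.78 and -1.75 in shCK5-22, again apart. Both genes moved this ratio: POLD1 fell (log2 fold change -0.17) and POLD2 rose (0.19, edgeR adjusted p = 0.000856). RRM2 over RRM1 went from a mean of 0.93 ± 0.027 to 1.13 ± 0.0201 (mean ± SD), and CDC7 over DBF4 went from -1.32 ± 0.0611 to -1.10 ± 0.0793, both with no overlap. In the other 4 pairs (PRIM1 with PRIM2, POLE with POLE2, CHAF1A with CHAF1B, and CDT1 with its inhibitor GMNN) the groups overlapped. Among single genes with a mean of at least 20 CPM, the groups did not overlap for 4377 of 7316. How often ratios of other gene pairs separate was not tested. The two-sided exact permutation test gave p = 0.1 for each of the 4 separated pairs, the smallest value that 3 against 3 allows, and 0.2 after adjustment over the 8 pairs, so this test cannot reach 0.05 here.

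Other genes of replication and S phase, 92 in 6 lists, were read beside the members. Of the 85 tested, 27 were higher and 15 lower, with a median log2 fold change of 0.03. These are 49.4%, beside 34.2% of all genes tested and 50.3% of those with a mean of at least 20 CPM. By list the share ran from 25% for licensing and firing to 75% for chromatin assembly. The 7 not tested were ATRIP, near 0, and 6 at 0 in every library: CDK2, POLD4, RNASEH2A, DCTPP1, ASF1A and HAT1. Each of these 6 had 100% of its exon bases inside another gene's span. The list of E2F and RB regulation had 8 of 15 higher and 2 lower (median 0.16). CCNE2 (log2 fold change 0.28) and CCNE1 (0.23), the cyclins of CDK2 at the start of S phase, and E2F7 (0.28), a repressor E2F, were its largest rises, while CCNA2, the S phase and G2 cyclin, fell by 0.24 and TFDP2, an E2F partner, by 0.17. Fork genes outside the member list were higher in 8 of 22 cases and lower in 3 (median 0.06), led by POLD3 (0.23), POLE4 (0.21) and the topoisomerase TOP1 (0.21), with falls by 0.25 for RPA2, by 0.20 for CHTF18 and by 0.10 for RPA1. RPA2 and RPA1 are subunits of the protein that coats single-stranded DNA.

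In licensing and firing, 2 of 12 were higher, DONSON (0.34), a fork and firing factor, and GMNN (0.12), which encodes geminin, and 1 was lower, ORC3, which fell by 0.17. In nucleotide supply, 2 of 11 rose, CAD (0.18) among them, and 4 fell, led by SAMHD1, a dNTP hydrolase (by 0.34), SHMT1 (by 0.22) and CTPS1 (by 0.13). In chromatin assembly 4 of 8 rose and 2 fell. DNMT1, the maintenance methyltransferase, rose by 0.20 from 478 ± 5.92 to 547 ± 13.2 CPM, MMS22L rose by 0.13 and RBBP4 by 0.13, while the histone chaperones ASF1B and NASP fell by 0.39 and by 0.25. In the checkpoint and fork repair list 3 of 17 rose, HUS1 (0.45) and CHEK1 (0.14) among them, and 3 fell, RMI2 by 0.49, WEE1 by 0.11 and FANCI by 0.09. Some named genes overlap other loci. In RefSeq, 100% of the span of RMI2, 73.2% of RPA1 and 42.6% of CHTF18 lie inside another locus. By exon bases in GENCODE 29 their shares were 0%, 6.61% and 8.4%. That exon share was 67.5% for TOP1, 61.8% for RBBP4, 50.1% for CCNE2 and 36.9% for SAMHD1. With the strand setting of the counting unknown, the counts of all these genes are uncertain. HUS1, part of the checkpoint clamp, went from 31.6 ± 0.256 to 43.2 ± 1.52 CPM (edgeR adjusted p = 1.52e-07).

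Mitosis genes, a list of 20 set beside the members, were higher in 12 cases and lower in 1, with a median log2 fold change of 0.11. The share that passed was 65%, beside 50.3% of all genes with a mean of at least 20 CPM. CENPE (0.19), BUB1B (0.18, with 82.0% of its RefSeq span inside other loci) and KIF20A (0.17) had the largest rises, and CENPF fell by 0.29 from 434 ± 10.8 to 355 ± 3.24 CPM. For the members the median was -0.05, with -0.07 for licensing, -0.01 for firing, -0.09 for the fork, -0.05 for nucleotide supply and 0.00 for regulators and chromatin. The lists share the same libraries, and the difference between them was not tested.

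**Figure D4:**
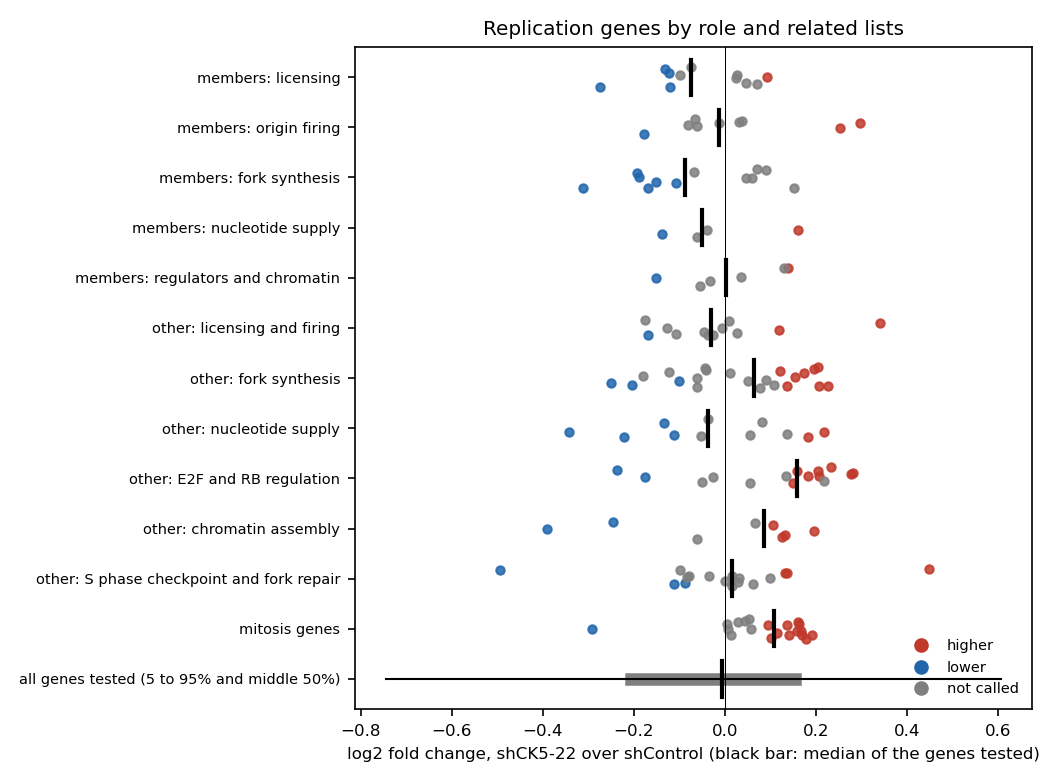
Log2 fold change of shCK5-22 over shControl for each tested gene of the member roles, the 6 other replication lists and the mitosis list (points, colored by call; black bars are list medians). The last line gives the median, middle 50% and 5 to 95% range of all 18008 genes tested; member medians lie between -0.09 and 0.00 and the mitosis median at 0.11.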

How the data were processed

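The authors deposited 1 table of raw read counts per gene symbol for 6 libraries (3 shControl, 3 shCK5-22), grouped here by sample title. Per the submitters' processing notes the build was GRCh38 and the tools included cutadapt, STAR, SAMtools and Cufflinks; the sources used here do not give the counting tool, its annotation or its strand setting. Of 56505 rows, 27 carried calendar dates in place of symbols (0.167% to 0.175% of counts) and were left out. Groups were compared with edgeR 4.0.16 (R 4.3.3; quasi-likelihood test, robust, TMM, filterByExpr), two-sided, with Benjamini-Hochberg adjustment across the 18008 genes that passed the filter and a threshold of 0.05. Each SE is the fitted log2 fold change divided by the root of F. The script was tested on simulated data. A count of 3 corresponds to 0.046 to 0.0624 CPM (counting error only). Lengths, coordinates and overlaps come from GENCODE 29, promoter windows from RefSeq GRCh38.p14.

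Alternatives were RLE, upper quartile or library size scaling, no filter or at least 1 CPM in 3 libraries, DESeq2 1.42.0, limma-voom (limma 3.58.1), a threshold of 0.01, the replicate number as a block, and leaving out each library. Values in every library are given for the 5 largest rises and falls past the threshold, the member highest per kilobase in each role and MCM2 to MCM7, with further examples; for other lists up to 3 called genes a direction are named, except that some are not reported here. The members and lists were chosen with earlier results of these data known.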

Additional observations from a re-analysis of the deposited data

How the results depend on the processing

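All 18 called members kept their direction under each of the 15 alternatives, and 12 of them stayed past the threshold in each. Of the counts, the members called lower went from 13 to 8 at an adjusted p of 0.01, and the members called higher from 5 to 8 with the replicate block. Over all genes, lower calls went from 3019 to 2137 at 0.01, and higher calls from 3134 to 3456 with the block. Leaving out each library gave between 8 and 13 members lower, and between 2391 and 3087 of all genes. DBF4 and MCM10, neither called, changed sign when a library was left out, with log2 fold changes from -0.0055 to 0.076 for DBF4 and from -0.054 to 0.0094 for MCM10. The cause of these shifts was not tested. Another scaling moved the median of all genes by at most 0.02 on the log2 scale (-0.02 with library size only), and the members' median stayed between -0.06 and -0.03 over the alternatives. The replicate numbers did not pair all libraries by their deviations. Same-numbered libraries correlated at 0.117, 0.219 and -0.0435 for replicates 1, 2 and 3 over 13517 genes. The values for replicates 1 and 2 were the highest of all pairs. By contrast, shControl replicate 3 correlated best with shCK5-22 replicate 1 (0.0998). Whether the replicates were paired cannot be told from these values. Tested members had at least 236 counts in each library; FEN1 and E2F8 were too low to test.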
